A study of Homo sapiens with 24 samples.

Results

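The constitutive proteasome subunit genes comprised every gene whose symbol in the array's probe annotation reads PSMA, PSMB, PSMC, PSMD or PSME followed by digits, with PSMB8, PSMB9, PSMB10, PSMD3 and pseudogenes left out. Only probe sets annotated to a single symbol counted, and each gene was read from its brightest one, by the mean of the 24 arrays. This gave 36 of the 18417 genes measured: 8 of the alpha ring and 8 of the beta ring of the 20S core, 5 ATPases and 3 other subunits of the 19S base, 5 subunits of the 19S lid, 3 assembly chaperones with PSMD symbols and 4 PSME activators. Further subunits of the particle were not analysed here. RNA came from SUM149PT and SUM190PT, established lines of inflammatory breast cancer labelled ER(-), with a p53 change labelled M237I in SUM149PT and Q317X in SUM190PT. Each line was treated for 48 h with 10 nM 17β-estradiol plus CG-1521, with CG-1521 alone, with estradiol alone, or with the vehicle of ethanol and DMSO, on 3 arrays per group from separate experiments. CG-1521, which the series title calls a histone deacetylase inhibitor, was given at 7.5 µM to SUM149PT in medium with fetal bovine serum and at 5 µM to SUM190PT in medium without it, so line, dose and medium changed together. All groups of both lines received insulin and hydrocortisone with the medium, and each line stands for a single tumour-derived culture.

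The proteasome degrades proteins that carry ubiquitin chains. Its 20S core is a barrel of outer alpha rings, which gate the channel, and inner beta rings, 3 of whose subunits cut peptide bonds. The 19S particle caps the barrel: its base holds the ATPases that unfold substrates, and its lid holds the enzyme that removes the ubiquitin chain. PSME proteins form other caps that do not need ubiquitin. When proteasome activity is short, the membrane-bound transcription factor NRF1, the product of NFE2L1, is released and binds antioxidant response elements in the promoters of most 20S and 19S genes, so that these genes are known to change together.

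RefSeq promoters (GRCh38.p14) were matched to 31 of the 36 genes, and 5 are shown for members with the largest changes: PSMD14, PSMC4 and PSMB5 among those that rose with CG-1521, and PSMD5 and PSME2 among those that fell. PSMA7, PSMB1, PSMB6, PSMB7 and PSMD4 had no entry. Each run covers the 250 bases before the transcription start, read 5′ to 3′ on the strand of the gene, and capitals mark the core of the antioxidant response element (TGANNNNGC) and the NF-Y box (CCAAT), each on either strand; in PSMD14 a pair of CCAAT boxes on opposite strands overlap.
PSMD14 (chr2:161308175-161308424, forward strand): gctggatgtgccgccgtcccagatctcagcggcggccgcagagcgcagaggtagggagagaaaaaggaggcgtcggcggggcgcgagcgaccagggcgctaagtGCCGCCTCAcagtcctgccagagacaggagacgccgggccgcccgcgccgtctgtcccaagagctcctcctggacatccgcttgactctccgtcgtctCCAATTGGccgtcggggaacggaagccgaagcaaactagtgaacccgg
PSMC4 (chr19:39970915-39971164, forward strand): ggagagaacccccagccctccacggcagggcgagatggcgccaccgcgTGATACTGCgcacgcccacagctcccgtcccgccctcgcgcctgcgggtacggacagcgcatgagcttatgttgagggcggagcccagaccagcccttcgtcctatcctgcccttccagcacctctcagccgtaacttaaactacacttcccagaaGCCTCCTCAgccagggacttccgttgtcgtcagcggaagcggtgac
PSMB5 (chr14:23035221-23035470, reverse strand): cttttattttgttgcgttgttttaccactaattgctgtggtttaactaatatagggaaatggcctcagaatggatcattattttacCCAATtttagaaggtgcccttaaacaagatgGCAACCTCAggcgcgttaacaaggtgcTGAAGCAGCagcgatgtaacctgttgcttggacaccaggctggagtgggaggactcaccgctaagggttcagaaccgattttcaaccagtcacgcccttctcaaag
PSMD5 (chr9:120842923-120843172, reverse strand): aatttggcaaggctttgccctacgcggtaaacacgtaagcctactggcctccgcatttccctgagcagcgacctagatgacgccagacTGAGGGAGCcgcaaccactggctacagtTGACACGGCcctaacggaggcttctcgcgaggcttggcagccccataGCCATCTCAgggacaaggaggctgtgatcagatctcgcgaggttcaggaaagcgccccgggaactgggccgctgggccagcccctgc
PSME2 (chr14:24146611-24146860, reverse strand): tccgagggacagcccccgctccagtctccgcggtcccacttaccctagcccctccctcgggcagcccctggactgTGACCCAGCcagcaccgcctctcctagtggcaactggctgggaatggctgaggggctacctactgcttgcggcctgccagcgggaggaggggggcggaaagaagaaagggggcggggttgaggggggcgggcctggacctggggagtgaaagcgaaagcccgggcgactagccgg
The letters TGANNNNGC stood in 18 of the 31 promoters (58.1%), beside 35.6% of the 15843 protein-coding promoters of the same length. They were present in promoters of genes that rose and of genes that fell, as the 5 shown illustrate. CCAAT stood in 13 of 31 (41.9%, beside 34.5% of all). Of the heat shock element pairs, GAANNTTC stood in 0 of 31 (4.81% of all) and TTCNNGAA in 2 of 31, PSMD5 and PSMD6 (6.45%, beside 5.71% of all). These are matches of letters, searched on both strands, and not binding data.

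The arrays were checked before the groups were compared. Replicate arrays of a group correlated over all genes at r of 0.9946 to 0.996 in SUM149PT and 0.9807 to 0.9957 in SUM190PT. In SUM190PT the third array of a group was often the lowest for these genes. It was the lowest for 28 of 36 members in vehicle and for 34 of 36 with estradiol, where 32.0% and 35.1% of all genes were lowest, for 30 of 36 with estradiol plus CG-1521 (34.0% of all genes) and 18 of 36 with CG-1521 (34.8%). In SUM149PT vehicle 13 of 36 were lowest on array 3, where 33.3% of all genes were. The median log2 signal of the members was 9.06 on the third SUM190PT vehicle array, against 9.43 and 9.28 on the other vehicle arrays, and 9.21 on the third estradiol array, against 9.63 and 9.60. A list of 15 DNA replication genes had a median of 7.52 and 7.50 on these 2 arrays and of 9.21 to 9.34 on the other 4 arrays without CG-1521, so these 2 arrays stand apart. Counts of the members and of related lists in SUM190PT are therefore given with and without them, and members whose call with CG-1521 against its own control changes without them are named. The epithelial list (EPCAM, keratins and others) had array medians of 10.50 to 10.82 in SUM149PT and 10.42 to 11.12 in SUM190PT, while the leukocyte, fibroblast and endothelial lists lay at 4.33 to 4.88, 5.07 to 5.32 and 4.26 to 4.57 in SUM149PT and at 4.16 to 4.85, 4.22 to 4.92 and 3.98 to 4.50 in SUM190PT. Most genes of these 3 lists were not called with CG-1521 against vehicle in SUM149PT, but single genes moved that the medians do not show. The largest log2 differences among those called were 2.06 for LCP1, -2.22 for FAP, -1.35 for COL6A3 and -0.96 for DCN. CD14 (-0.29) and CD53 (0.25) of the leukocyte list were called with smaller differences. The basal list (4 genes measured, among them EGFR and LAMB3) and the luminal list (6 genes, among them FOXA1 and GATA3) moved with CG-1521 in SUM190PT. Their array medians there were 6.63 to 6.995 with CG-1521 and 5.49 to 6.05 in vehicle for the basal list, and 9.97 to 10.04 with CG-1521 and 10.53 to 10.70 in vehicle for the luminal list. In that comparison 2 of 4 basal genes rose and 5 of 6 luminal genes fell, with log2 differences of 1.21 for LAMB3, 1.07 for EGFR and -1.84 for SPDEF. In SUM149PT the medians were 9.22 to 9.39 with CG-1521 and 9.42 to 9.52 in vehicle for the basal list, of which 1 of 4 rose, and 6.75 to 7.03 and 6.91 to 7.05 for the luminal list, of which 2 rose and 1 fell, with 3.88 for AGR2. Over all genes 14.4% rose and 19.9% fell in SUM149PT, and 8.32% and 8.26% in SUM190PT. The part of these marker lists in the results below was not tested.

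Most constitutive proteasome genes were higher with CG-1521 in both lines. In SUM149PT, 24 of 36 rose and 4 fell relative to vehicle at an adjusted p under 0.05 (limma, Benjamini-Hochberg over all 18417 genes), where 14.4% of all genes rose and 19.9% fell. With all 24 arrays in 1 fit, 16 rose and 2 fell there, beside 10.3% and 15.9% of all genes. In SUM190PT, 23 of 36 rose and 0 fell, where 8.32% of all genes rose and 8.26% fell. The median log2 difference of the 36 genes was 0.33 in SUM149PT and 0.61 in SUM190PT, and that of all genes was -0.00 and -0.05. All 3 CG-1521 arrays lay above all 3 vehicle arrays for 25 of 36 members in SUM149PT (19.9% of all genes) and for 27 of 36 in SUM190PT (14.3% of all genes), and below them for 4 (24.7%) and 1 (17.2%). In whole cultures fewer cells and less RNA per cell cannot be told apart, and each value is relative to the other RNA on its array.

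With estradiol on both sides most of these changes recurred. Other arrays were compared here, but all arrays of a line shared the same estimate of the spread in the fit. In SUM190PT same-numbered arrays with and without estradiol also deviated together, so the comparisons are not independent. Estradiol plus CG-1521 against estradiol gave 22 higher and 4 lower members in SUM149PT (16.5% and 20.4% of all genes), with a median log2 difference of 0.27; with all 24 arrays in 1 fit it gave 10 higher and 2 lower (11.5% and 16.5% of all genes). In SUM190PT it gave 16 higher and 1 lower (12.5% and 13.2%), with a median of 0.41. The medians of all genes were 0.03 in SUM149PT and 0.07 in SUM190PT. All 3 combination arrays lay above the estradiol arrays for 23 members and below for 4 in SUM149PT (22.5% and 24.2% of all genes), and above for 22 and below for 1 in SUM190PT (26.4% and 19.2%). Without these 2 arrays (vehicle array 3 and estradiol array 3), SUM190PT had 21 higher and 0 lower for CG-1521 against vehicle and 14 higher and 2 lower with estradiol present, with medians of 0.53 and 0.27, where 8.07% and 9.40% of all genes were higher and lower against vehicle and 12.7% and 14.6% with estradiol present. Against vehicle PSMB3 (0.39, adjusted p = 0.0747) and PSMC2 (0.38, adjusted p = 0.0881) were then not called. With estradiol present PSMB3 (0.38, adjusted p = 0.0589) and PSMC3 (0.27, adjusted p = 0.119) were not called, and PSME2 fell by 0.45 (adjusted p = 0.0358). The SUM190PT genes given below on every array kept their calls for CG-1521 without them, with log2 differences such as 1.18 for PSMD14 and 0.99 for PSMA3 against vehicle and 0.89 for PSMC4 and -0.77 for PSMD5 with estradiol on both sides. Estradiol plus CG-1521 against vehicle, which shares the vehicle arrays, gave 23 higher and 4 lower in SUM149PT (16.2% and 20.9% of all genes) and 22 higher and 1 lower in SUM190PT (6.62% and 6.77%). Without the same 2 arrays it gave 20 and 1 in SUM190PT (6.55% and 8.92% of all genes). With all 24 arrays in 1 fit the SUM149PT counts were 14 and 3 (11.4% and 17.1% of all genes).

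**Figure D1:**
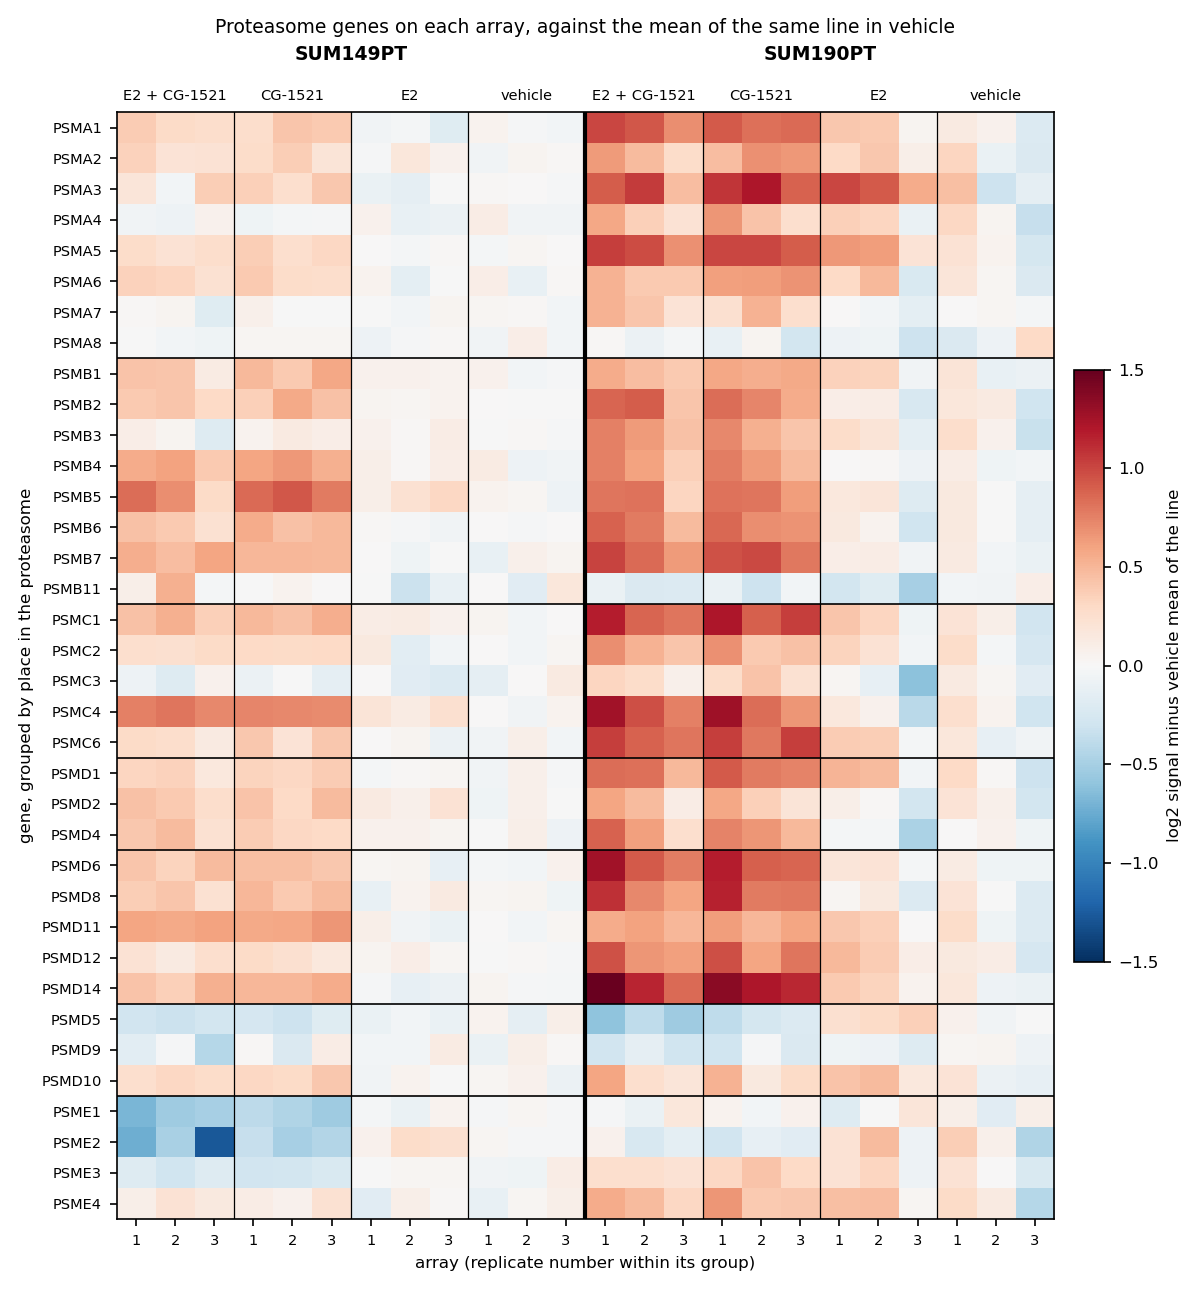
Log2 signal of each of the 36 genes (rows, grouped by place in the particle, lines between groups) on each of the 24 arrays (columns), as the difference from the mean of the 3 vehicle arrays of the same line, with red higher and blue lower. The columns with CG-1521 are red for most 20S and 19S genes in both lines, PSMD5 is blue there, PSME1 and PSME2 are blue in SUM149PT, and in SUM190PT array 3 of vehicle and of estradiol is paler or bluer than arrays 1 and 2.

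The 34 members other than PSMA8 and PSMB11 belonged to the brighter 50% of the genes by mean signal, and a check over these was added after the values were seen. Among the 9209 genes 21.4% rose and 32.2% fell with CG-1521 in SUM149PT, and 13.9% rose and 11.3% fell in SUM190PT. The same genes had median log2 differences of -0.05 and -0.01, against 0.34 and 0.63 for the 34 members. The members' rise in SUM149PT thus ran opposite to the balance of calls in the brighter 50% of the genes. Most members lay near the top of that range, and genes as bright as they were not counted apart.

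In the alpha ring, 5 of 8 genes rose with CG-1521 in each line and none fell. They were PSMA1, PSMA2, PSMA3, PSMA5 and PSMA6, the same 5 in both lines, with log2 differences of 0.28 to 0.36 in SUM149PT and 0.60 to 1.05 in SUM190PT. PSMA3, whose product takes part in closing the gate of the channel, had 9.13, 9.28 and 8.94 with CG-1521, against 8.51, 7.75 and 7.92 in vehicle in SUM190PT. The 3 CG-1521 arrays lay above the 3 vehicle arrays, and the difference was 1.05 ± 0.205 (adjusted p = 0.00419), a fold change of 2.08. With estradiol present PSMA3 had 8.97, 9.11 and 8.53 with estradiol plus CG-1521, against 9.06, 8.98 and 8.62 with estradiol: the groups overlapped, and the difference was -0.02 ± 0.205 (adjusted p = 0.96). In SUM149PT it had 10.01, 9.90 and 10.06 with CG-1521, against 9.67, 9.66 and 9.63 in vehicle, again without overlap, with a difference of 0.34 ± 0.0945 (adjusted p = 0.0109). PSMA1 was higher in all 4 comparisons of CG-1521 against its own control, by 0.36 and 0.40 in SUM149PT and by 0.86 and 0.60 in SUM190PT. PSMA7 did not pass with CG-1521 alone in SUM149PT (0.02, adjusted p = 0.866) or SUM190PT (0.34, adjusted p = 0.0614), but rose with estradiol present in SUM190PT (0.44, adjusted p = 0.0149). PSMA4 passed in none of these comparisons, with differences of -0.04 to 0.44. PSMA8, the testis form of an alpha subunit, had 2.90, 2.90 and 2.90 with CG-1521, against 2.81, 2.97 and 2.82 in vehicle in SUM149PT and 2.78, 2.94 and 2.63 with CG-1521, against 2.68, 2.82 and 3.19 in vehicle in SUM190PT. The groups overlapped in both lines: the difference with CG-1521 was 0.03 ± 0.0724 (adjusted p = 0.819) in SUM149PT and -0.12 ± 0.138 (adjusted p = 0.614) in SUM190PT.

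In the beta ring, 6 of 8 genes rose in SUM149PT and 7 of 8 in SUM190PT with CG-1521, among them the 3 catalytic subunits. PSMB5, the chymotrypsin-like subunit and the target of the drug bortezomib, had 9.12, 9.20 and 9.05 with CG-1521, against 8.32, 8.29 and 8.18 in vehicle in SUM149PT. No CG-1521 array reached down to a vehicle array, and the difference of 0.86 ± 0.118 (adjusted p = 2.76e-05) was the largest rise of the 36 genes in that comparison, a fold change of 1.81. In SUM190PT it had 9.87, 9.87 and 9.68 with CG-1521, against 9.20, 9.05 and 8.93 in vehicle, also apart, with a difference of 0.75 ± 0.151 (adjusted p = 0.0053). With estradiol present in SUM149PT it had 9.11, 8.96 and 8.54 with estradiol plus CG-1521, against 8.35, 8.49 and 8.58 with estradiol; the third combination array lay inside the estradiol group, and the difference of 0.40 ± 0.118 (adjusted p = 0.0147) no longer passed without estradiol array 1, combination array 1 or combination array 2.
PSMB6, the caspase-like subunit, had 11.09, 10.96 and 11.01 with CG-1521, against 10.54, 10.52 and 10.53 in vehicle in SUM149PT, a difference of 0.49 ± 0.0763 (adjusted p = 8.74e-05). In SUM190PT it had 10.45, 10.29 and 10.26 with CG-1521, against 9.73, 9.58 and 9.46 in vehicle, a difference of 0.75 ± 0.143 (adjusted p = 0.00396). Treated and vehicle arrays were apart in both lines.
PSMB7, the trypsin-like subunit, had 11.76, 11.75 and 11.74 with CG-1521, against 11.15, 11.33 and 11.30 in vehicle in SUM149PT, a difference of 0.49 ± 0.075 (adjusted p = 7.29e-05). All treated arrays lay above the vehicle arrays. In SUM190PT it had 11.41, 11.44 and 11.24 with CG-1521, against 10.59, 10.41 and 10.36 in vehicle, apart again, a difference of 0.91 ± 0.12 (adjusted p = 0.000347). The remaining members that rose in both lines were PSMB1, PSMB2 and PSMB4, structural subunits of the ring, with differences of 0.45 to 0.59 in SUM149PT and 0.57 to 0.71 in SUM190PT. With CG-1521 alone PSMB3 passed in SUM190PT (0.56 ± 0.165, adjusted p = 0.0364) and not in SUM149PT (0.10 ± 0.083, adjusted p = 0.42), and the difference between the lines did not pass (-0.46, adjusted p = 0.088). PSMB11, the thymus form of PSMB5, had a log2 signal of 3.85 to 4.89 over the 24 arrays. It passed as higher in SUM149PT with estradiol present, at 4.46, 4.89 and 4.33 with estradiol plus CG-1521, against 4.35, 4.04 and 4.25 with estradiol: the groups overlapped, the second combination array was the highest of all 24, and the difference was 0.35 ± 0.13 (adjusted p = 0.0488).

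**Figure D2:**
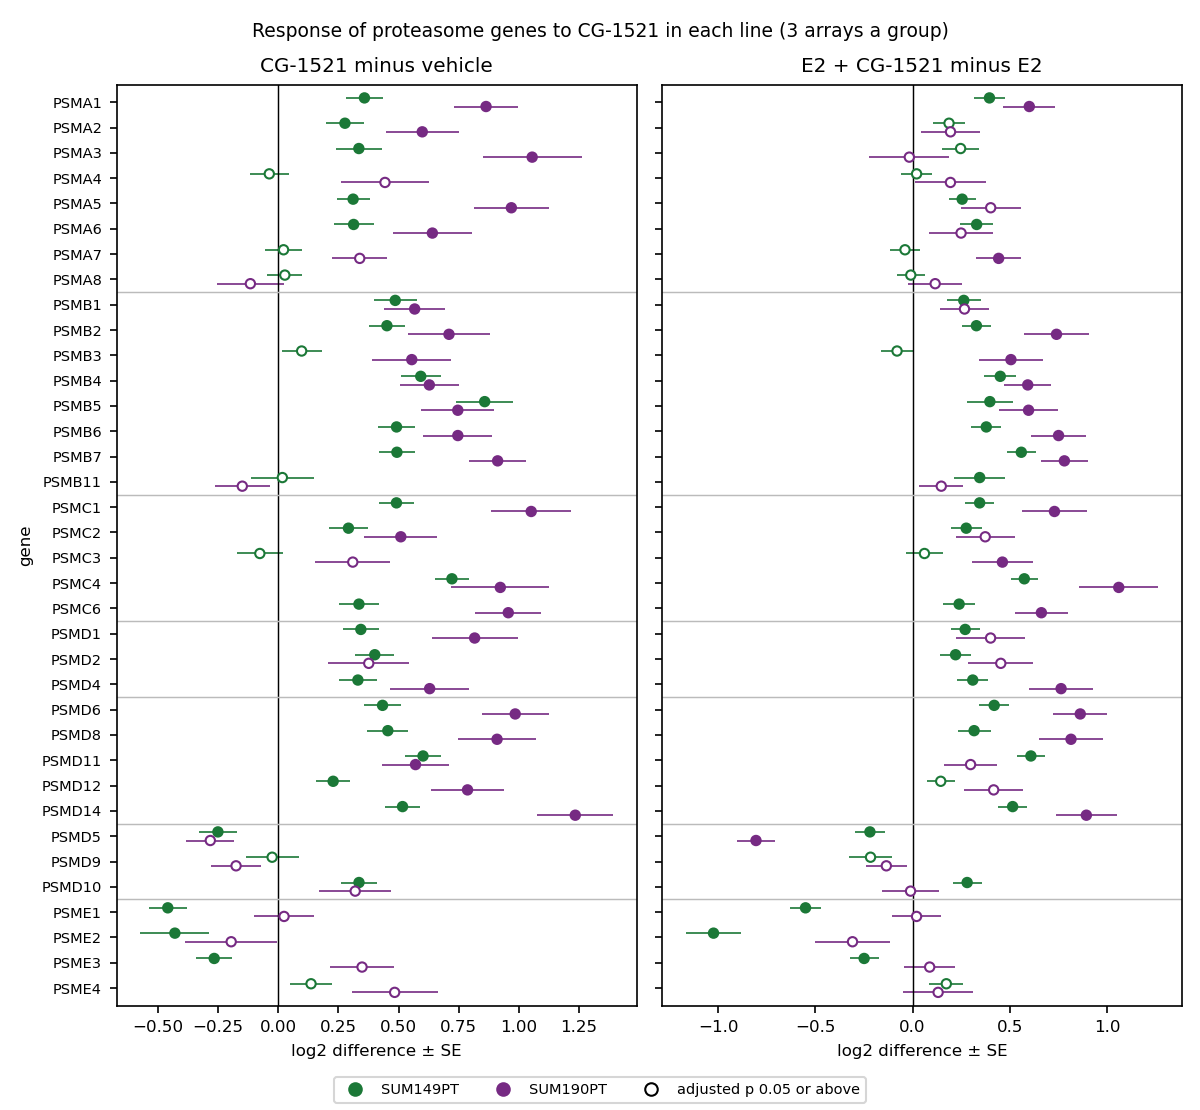
Log2 difference ± SE of each of the 36 genes (rows, grouped by place in the particle) for CG-1521 against vehicle (left) and estradiol plus CG-1521 against estradiol (right), in SUM149PT (green) and SUM190PT (purple), 3 arrays per group, with filled points at an adjusted p under 0.05. Most 20S and 19S genes lie right of 0 in both panels, with SUM190PT further right for PSMA1, PSMD14 and PSMC6, while PSME1, PSME2 and PSMD5 lie left of 0 in SUM149PT.

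The members held 5 ATPases of the 19S base, which are part of the ring that unfolds substrates. PSMC5 was not among them. With CG-1521, 4 of the 5 rose in each line: PSMC1, PSMC2, PSMC4 and PSMC6. PSMC4 had 9.85, 9.84 and 9.83 with CG-1521, against 9.12, 9.07 and 9.17 in vehicle in SUM149PT. The 2 groups were far apart relative to their spread, with a difference of 0.72 ± 0.0706 (adjusted p = 7.68e-07). With estradiol present it had 10.37, 10.08 and 9.87 with estradiol plus CG-1521, against 9.26, 9.17 and 8.70 with estradiol in SUM190PT, apart as well, and the difference of 1.06 ± 0.204 (adjusted p = 0.00323) was the largest rise of the members in that comparison. PSMC1 had 11.51, 11.19 and 11.32 with CG-1521, against 10.49, 10.38 and 10.00 in vehicle in SUM190PT, without overlap, and a difference of 1.05 ± 0.166 (adjusted p = 0.00123); in SUM149PT the difference was 0.49 ± 0.0738 (adjusted p = 6.45e-05). PSMC6 differed by 0.34 ± 0.0836 (adjusted p = 0.00477) in SUM149PT and by 0.96 ± 0.138 (adjusted p = 0.000663) in SUM190PT. Both PSMC1 and PSMC6 had a further probe set, which differed by 0.50 and 0.55 in SUM149PT and by 1.06 and 1.23 in SUM190PT. PSMC3 did not pass with CG-1521 alone (-0.08, adjusted p = 0.602, in SUM149PT and 0.31, adjusted p = 0.196, in SUM190PT) and rose in SUM190PT with estradiol present (0.46, adjusted p = 0.045), where estradiol array 3 was low at 8.72, against 9.36 and 9.22.

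The other subunits of the base and the lid moved the same way. PSMD1 and PSMD2, the large scaffold subunits, and PSMD4, a receptor for ubiquitin chains, rose in SUM149PT by 0.34, 0.40 and 0.33; in SUM190PT PSMD1 and PSMD4 rose by 0.82 and 0.63, and PSMD2 differed by 0.38 ± 0.168 (adjusted p = 0.146), with overlapping arrays. All 5 lid genes measured rose in both lines. PSMD14, the deubiquitinase of the lid, had 10.75, 10.61 and 10.52 with CG-1521, against 9.56, 9.32 and 9.29 in vehicle in SUM190PT. All treated arrays were higher by more than the whole spread of the vehicle arrays, and the difference of 1.23 ± 0.157 (adjusted p = 0.00029), a fold change of 2.35, was the largest of the 36 genes in any of the comparisons with CG-1521 alone. In SUM149PT it had 11.25, 11.24 and 11.31 with CG-1521, against 10.80, 10.73 and 10.72 in vehicle, apart too, with a difference of 0.52 ± 0.0734 (adjusted p = 3.73e-05). PSMD6, a structural subunit of the lid, had 10.29, 9.96 and 9.81 with estradiol plus CG-1521, against 9.22, 9.24 and 9.01 with estradiol in SUM190PT, without overlap, a difference of 0.86 ± 0.139 (adjusted p = 0.00112). PSMD11, a scaffold subunit of the lid, had 11.11, 11.11 and 11.20 with CG-1521, against 10.54, 10.50 and 10.57 in vehicle in SUM149PT, apart, with a difference of 0.60 ± 0.0738 (adjusted p = 8.5e-06). In SUM190PT its difference was 0.57 ± 0.139 (adjusted p = 0.0143), and with estradiol present it was 0.61 ± 0.0738 (adjusted p = 7.14e-06) in SUM149PT and 0.30 ± 0.139 (adjusted p = 0.126) in SUM190PT. PSMD8 and PSMD12 rose by 0.46 and 0.23 in SUM149PT and by 0.91 and 0.79 in SUM190PT.

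The 3 assembly chaperones with PSMD symbols, which help to build the base and leave the finished particle, did not move together. PSMD10, also known as gankyrin, rose in SUM149PT (0.34 ± 0.0748, adjusted p = 0.00208) and differed by 0.32 ± 0.149 (adjusted p = 0.163) in SUM190PT, with overlapping arrays. PSMD5 was lower instead. In SUM190PT it had 8.88, 9.11 and 8.96 with estradiol plus CG-1521, against 9.73, 9.78 and 9.85 with estradiol. The 3 combination arrays all lay below the estradiol arrays, and the difference was -0.81 ± 0.0998 (adjusted p = 0.000207), a fold change of 0.572. Without estradiol it had 9.12, 9.23 and 9.29 with CG-1521, against 9.56, 9.44 and 9.48 in vehicle, apart in the same direction, with a difference of -0.28 ± 0.0998 (adjusted p = 0.0726). In SUM149PT it fell by 0.25 with CG-1521 alone (adjusted p = 0.0196) and by 0.22 with estradiol present (adjusted p = 0.0371). Both calls were lost under quantile normalization of the deposited values, with differences of -0.12 and -0.06 (adjusted p = 0.287 and 0.633). PSMD9 passed in none of these comparisons, with differences of -0.22 to -0.02.

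The PSME genes, which encode the caps other than the 19S particle, went their own way in SUM149PT: 3 of 4 fell with CG-1521 and none rose. PSME1 and PSME2 encode the subunits of PA28, a cap induced by interferon-gamma and tied to antigen processing. PSME1 had 8.14, 8.09 and 7.999 with CG-1521, against 8.52, 8.57 and 8.52 in vehicle, apart, with a difference of -0.46 ± 0.0782 (adjusted p = 0.000215). PSME2 had 7.06, 6.90 and 6.96 with CG-1521, against 7.43, 7.39 and 7.38 in vehicle, apart, with a difference of -0.43 ± 0.144 (adjusted p = 0.0295); this call was lost under quantile normalization of the deposited values (-0.36) and on leaving out vehicle array 1, 2 or 3 or CG-1521 array 2 or 3. With estradiol present PSME2 had 6.67, 6.92 and 6.12 with estradiol plus CG-1521, against 7.46, 7.67 and 7.64 with estradiol, with the third combination array the lowest, and a difference of -1.02 ± 0.144 (adjusted p = 3.16e-05). PSME3, which forms a nuclear cap, had 9.38, 9.40 and 9.45 with CG-1521, against 9.62, 9.62 and 9.79 in vehicle, apart, with a difference of -0.27 ± 0.0748 (adjusted p = 0.0109), which was -0.15 and did not pass under quantile normalization. PSME4, the large PA200 cap of the nucleus, did not pass (0.14 ± 0.088, adjusted p = 0.27). In SUM190PT 0 of 4 passed with CG-1521 alone, with differences of 0.02 for PSME1, -0.19 for PSME2, 0.35 for PSME3 and 0.48 for PSME4. Under quantile normalization the split of calls in SUM149PT for CG-1521 against vehicle was 25 higher and 1 lower, beside the 24 and 4 above. The share of all genes in that fit is not given here.

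**Figure D3:**
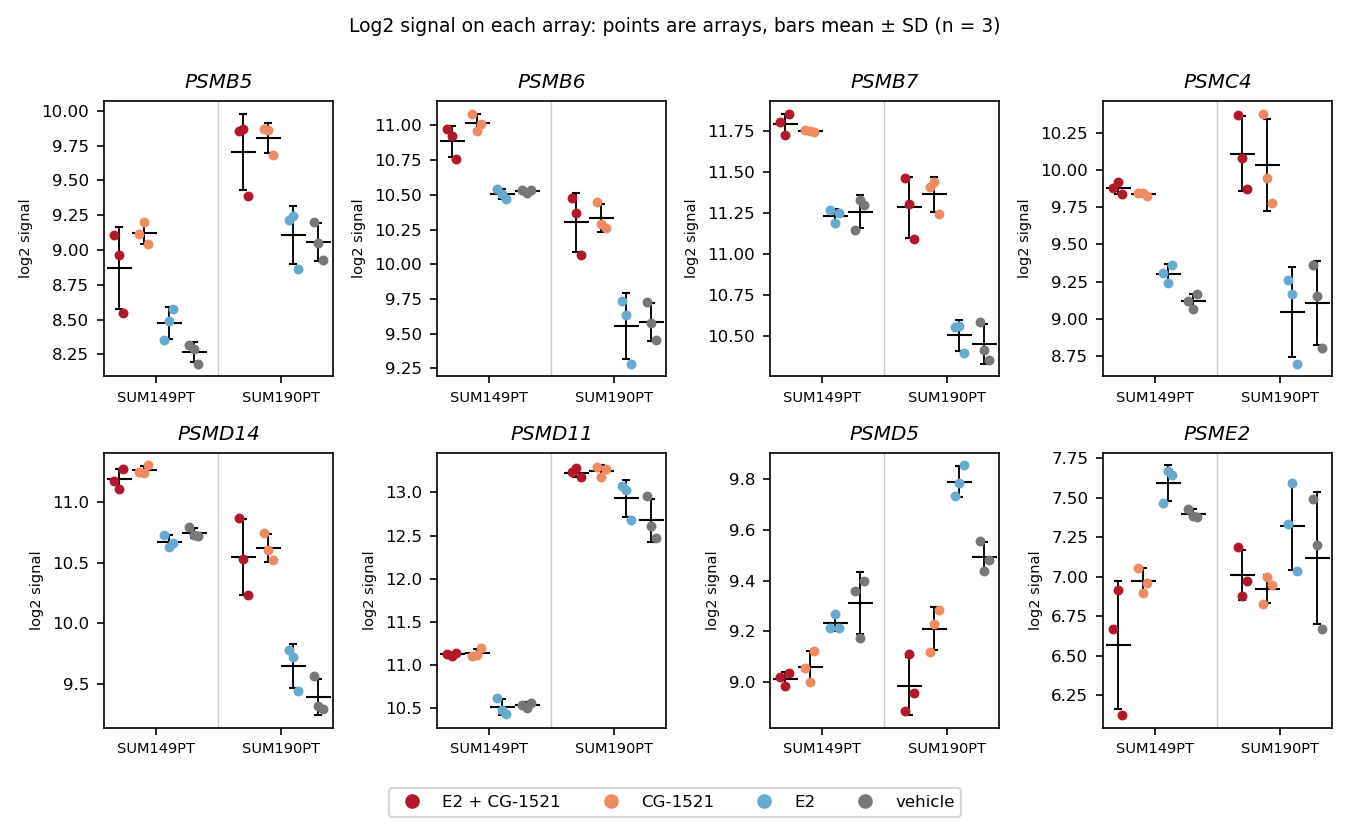
Log2 signal of PSMB5, PSMB6, PSMB7, PSMC4, PSMD14, PSMD11, PSMD5 and PSME2 on every array, with SUM149PT on the left and SUM190PT on the right of each panel; points are arrays, coloured by treatment, and black bars the mean ± SD (n = 3). The first 6 genes are higher with CG-1521 in both lines, PSMD11 also lies at 12.47 to 13.30 in SUM190PT, and PSMD5 and PSME2 are lower with CG-1521 in SUM149PT.

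A set of 13 genes passed as higher in all 4 comparisons of CG-1521 with its own control (with and without estradiol, in both lines): PSMA1, PSMB2, PSMB4, PSMB5, PSMB6, PSMB7, PSMC1, PSMC4, PSMC6, PSMD4, PSMD6, PSMD8 and PSMD14. It held all 3 catalytic subunits, and 1.94% of all genes passed as higher in all 4. A further 15 passed as higher in 1 to 3 of them, so that 28 of 36 rose at least once (30.0% of all genes), while PSMA4, PSMA8, PSMD9 and PSME4 were called in none. These counts hold for the fit of each line on its own arrays. With all 24 arrays in 1 fit, fewer than 13 members were higher in SUM149PT with estradiol present, so the set was not kept whole. The PSMB5 call in that comparison also depended on single arrays, as given above. The genes that rose with CG-1521 alone overlapped between the lines in 22, which is 91.7% of the 24 of SUM149PT and 95.7% of the 23 of SUM190PT. Over all genes 648 overlapped in this way, which is 24.4% of those that rose in SUM149PT and 42.3% of those that rose in SUM190PT. Within a line, the comparisons with and without estradiol shared 21 (87.5% of 24 and 95.5% of 22) in SUM149PT and 14 (60.9% of 23 and 87.5% of 16) in SUM190PT, while over all genes the shares were 78.7% and 68.9% in SUM149PT and 51.9% and 34.5% in SUM190PT. No member passed in opposite directions in any of these pairs.

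With estradiol alone no member passed in the fit of each line on its own arrays. Against vehicle 0 of 36 members passed in SUM149PT and 0 of 36 in SUM190PT (limma), where 0.0% and 0.00543% of all genes passed in either direction; at an unadjusted p under 0.05 there were 1 and 5 members, beside 4.59% and 24.6% of all genes. The member in SUM149PT was PSMC4 (0.19, unadjusted p = 0.0184). The 5 in SUM190PT were PSMA3 (0.83), PSMA5 (0.50), PSMD10 (0.35), PSMD5 (0.30) and PSMB11 (-0.32). Same-numbered arrays of these 2 groups deviated together, and with the replicate number as a block 2 of 36 passed as higher: PSMA3 and PSMA5, each at an adjusted p of 0.0442. PSMA3 had 9.06, 8.98 and 8.62 with estradiol, against 8.51, 7.75 and 7.92 in vehicle, and PSMA5 had 9.92, 9.90 and 9.48 with estradiol, against 9.49, 9.32 and 9.01 in vehicle. With all 24 arrays in 1 fit 4 of 36 passed as higher, these 2 with PSMD5 and PSMD10 (7.38% of all genes), and without vehicle array 1, 2 passed. Shares of all genes with the block and without vehicle array 1 are not given here. The calls in those fits are therefore not read as particular to the members. Without array 3 of both groups 0 of 36 passed (0.0% of all genes). All PSMA3 estradiol arrays lay above the vehicle arrays, while those of PSMA5 overlapped. Estradiol added to CG-1521 gave 0 of 36 in either line (limma, 0.0% of all genes in each). In each line 1 member had an unadjusted p under 0.05, beside 6.28% of all genes in SUM149PT and 4.83% in SUM190PT: PSME2 in SUM149PT (-0.40) and PSMD5 in SUM190PT (-0.23).

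The interaction asks whether the response to CG-1521 differed with and without estradiol, and 0 of 36 members passed in either line (limma, 0.0% of all genes in SUM149PT and 0.516% in SUM190PT). In SUM190PT 3 of 36 passed with all 24 arrays in 1 fit, PSMA3, PSMA5 and PSMD5, all lower (5.08% of all genes). Without vehicle array 1, 2 passed, and the share of all genes in that fit is not given here. At an unadjusted p under 0.05 there were 2 in SUM149PT, PSME2 (-0.60 ± 0.203) and PSMB5 (-0.46 ± 0.167), and 3 in SUM190PT, PSMA3 (-1.07 ± 0.29), PSMA5 (-0.57 ± 0.22) and PSMD5 (-0.52 ± 0.141). For all 5 the response was lower, or the fall larger, with estradiol present, and 5.68% and 22.6% of all genes of the lines passed at that threshold.

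Vehicle cultures of the lines differed in many of these genes, as they did in many others. In SUM149PT 17 of 36 were higher and 2 lower than in SUM190PT, where 24.5% of all genes were higher and 22.1% lower, and the median log2 difference was 0.27. Without array 3 of SUM190PT vehicle and of SUM190PT estradiol there were 16 higher and 5 lower (23.7% and 21.1% of all genes), and the median was 0.12. Under quantile normalization of the deposited values there were also 16 higher and 5 lower, and the share of all genes in that fit is not given here. PSMA3 had 9.67, 9.66 and 9.63 in SUM149PT, against 8.51, 7.75 and 7.92 in SUM190PT, a difference of 1.59 ± 0.166 (adjusted p = 2.91e-08). PSMC6 had 9.64, 9.79 and 9.66 in SUM149PT, against 8.34, 8.04 and 8.11 in SUM190PT, a difference of 1.53 ± 0.113 (adjusted p = 1e-10). For PSMD14 the difference was 1.36 ± 0.123 (adjusted p = 2.77e-09). These 3 were the largest, and their groups were apart. The other way, PSMD11 had 10.54, 10.50 and 10.57 in SUM149PT, against 12.95, 12.61 and 12.47 in SUM190PT, a difference of -2.14 ± 0.109 (adjusted p = 1.57e-13); with CG-1521 the difference was -2.11 ± 0.109 (adjusted p = 2.64e-13). PSMB5 had 8.32, 8.29 and 8.18 in SUM149PT, against 9.20, 9.05 and 8.93 in SUM190PT, a difference of -0.80 ± 0.141 (adjusted p = 4.92e-05), while the other catalytic genes were higher in SUM149PT: 0.94 for PSMB6 and 0.81 for PSMB7.

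With CG-1521, 10 members were higher and 6 lower in SUM149PT than in SUM190PT, near the shares of all genes (25.0% and 22.6%). Centring each array on its median gave 10 higher and 13 lower. The share of all genes in that fit is not given here, so its count is not read as particular to the members. The median log2 difference was -0.01, and 0.04 under quantile normalization, so its sign was not settled. The test of the response itself gave 11 of 36 members with a lower response in SUM149PT at 7.5 µM than in SUM190PT at 5 µM and 0 the other way, where 11.6% and 9.01% of all genes passed in those directions, and a median of -0.32, beside 0.03 for all genes. They spanned the particle: PSMA1, PSMA3 and PSMA5 of the alpha ring, PSMB7, the ATPases PSMC1 and PSMC6, the lid genes PSMD6, PSMD12 and PSMD14, and PSME1 and PSME3. PSMD14 rose by 0.52 in SUM149PT and by 1.23 in SUM190PT, a difference of -0.72 ± 0.173 (adjusted p = 0.00491). PSMA5 rose by 0.31 and 0.97 in the same order, a difference of -0.66 ± 0.169 (adjusted p = 0.00768). The difference did not pass for PSMB5 (0.11 ± 0.199, adjusted p = 0.738) or PSMC4 (-0.20 ± 0.222, adjusted p = 0.566). The count was 8 without SUM190PT vehicle array 3 and estradiol array 3 (11.2% of all genes), where PSMA3, PSMB7 and PSMC1 no longer passed. It was 6 under quantile normalization, where 1698 genes of all passed as higher and 1870 as lower. It was 7 without SUM149PT CG-1521 array 1, 6 without SUM190PT vehicle array 3 and 7 without SUM190PT CG-1521 array 1.

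**Figure D4:**
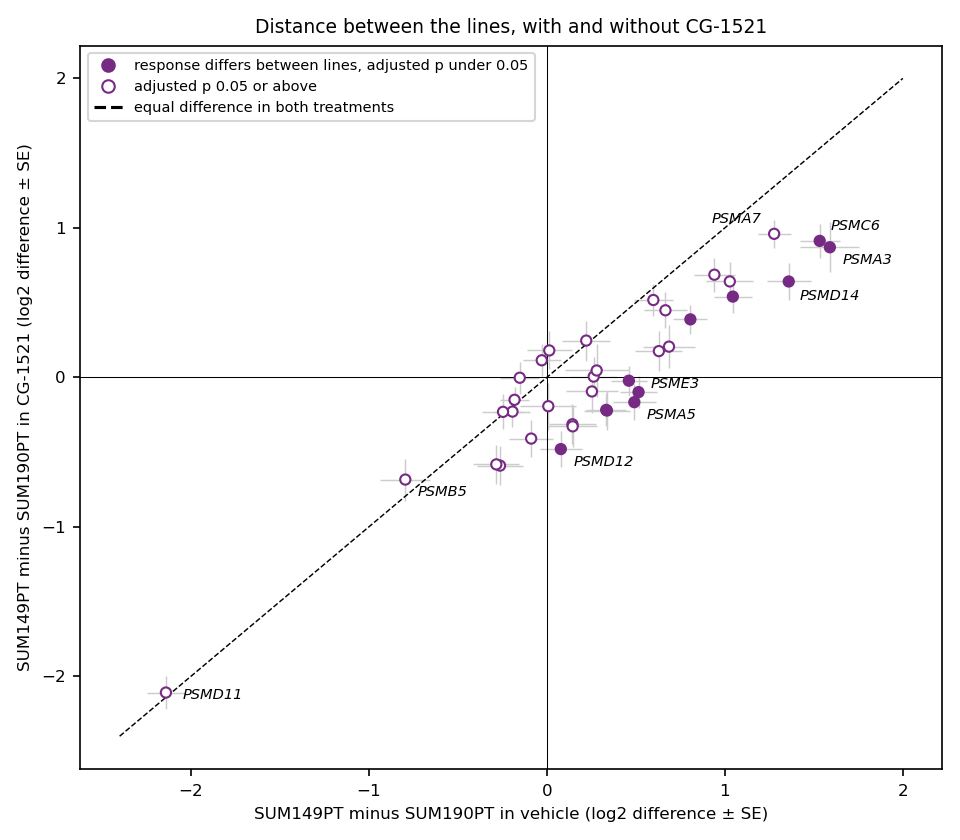
Log2 difference ± SE of SUM149PT minus SUM190PT in vehicle (horizontal) and with CG-1521 (vertical) for each of the 36 genes, with filled points where the response to CG-1521 differed between the lines at an adjusted p under 0.05; the dashed line marks an equal difference in both. The 11 filled points lie below the dashed line, and PSMD11 lies far to the lower left, near the line.

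Genes that act on the proteasome moved in part with it. Of 10 genes listed with the NRF1 pathway, 9 rose in SUM149PT and 6 in SUM190PT with CG-1521 (7 without SUM190PT vehicle array 3 and estradiol array 3), and 0 fell. Over all genes 14.4% rose in SUM149PT and 8.32% in SUM190PT (8.07% without these arrays). The list also holds NFE2L2, which encodes the related factor NRF2 and not a step of the NRF1 pathway. NFE2L2 rose in SUM190PT (0.69, limma, adjusted p = 0.014) and did not pass in SUM149PT (0.21, adjusted p = 0.0507). NFE2L1, which encodes NRF1 and was singled out after its values were seen, had 8.96, 8.94 and 9.05 with CG-1521, against 8.47, 8.55 and 8.46 in vehicle in SUM149PT, apart, a difference of 0.49 ± 0.0781 (adjusted p = 0.000112). In SUM190PT it had 10.01, 9.73 and 9.52 with CG-1521, against 8.68, 8.69 and 9.91 in vehicle: the third vehicle array was high, the groups overlapped, and the difference was 0.66 ± 0.342 (adjusted p = 0.21). Without vehicle array 3 and estradiol array 3 it was 1.07 ± 0.175 (adjusted p = 0.00156), and the arrays left did not overlap. MAFG, a small partner of NRF1 on DNA, differed by 0.95 ± 0.0838 (adjusted p = 2.44e-07) in SUM149PT and 1.36 ± 0.12 (adjusted p = 3.91e-05) in SUM190PT. VCP, NPLOC4 and UFD1, which draw proteins out of the endoplasmic reticulum membrane, rose in both lines, by 0.54, 0.72 and 0.59 in SUM149PT and by 0.79, 1.20 and 0.87 in SUM190PT. SYVN1, a ubiquitin ligase of that membrane, rose in SUM149PT (1.09 ± 0.0903, adjusted p = 1.36e-07) and did not pass in SUM190PT (-0.15 ± 0.145, adjusted p = 0.519), and the responses differed (1.24 ± 0.172, adjusted p = 2.51e-05).

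Assembly factors outside the PSMD family split. POMP, which matures the 20S core, rose in both lines (0.51 in SUM149PT and 0.57 in SUM190PT), whereas PSMG1, PSMG2 and PSMG3, which help to assemble the alpha ring, fell in SUM149PT by 0.34, 0.74 and 0.66. In SUM190PT PSMG3 fell by 0.45, and PSMG1 and PSMG2 differed by -0.10 and -0.32 without passing. Without vehicle array 3 and estradiol array 3 PSMG2 fell by 0.45 (adjusted p = 0.0286), and PSMG3 did not pass (-0.41, adjusted p = 0.0578). AKIRIN2, which carries proteasomes into the nucleus, differed by 0.11 ± 0.076 (adjusted p = 0.294) in SUM149PT and by 1.06 ± 0.131 (adjusted p = 0.000249) in SUM190PT. Of 12 proteasome-bound factors, 6 rose and 4 fell in SUM149PT and 6 rose and 0 fell in SUM190PT, or 5 and 0 without the same 2 arrays. Over all genes 14.4% rose and 19.9% fell in SUM149PT, and 8.32% and 8.26% in SUM190PT (8.07% and 9.4% without these arrays). TXNL1, USP14 and SEM1 rose in both, by 0.41, 0.44 and 0.32 in SUM149PT and by 1.17, 1.10 and 1.02 in SUM190PT, and UCHL5, a deubiquitinase of the cap, fell in SUM149PT (-0.59 ± 0.08, adjusted p = 2.4e-05). UBB, a ubiquitin gene, rose in SUM190PT (1.11 ± 0.165, adjusted p = 0.000819) and differed by 0.16 ± 0.0795 (adjusted p = 0.148) in SUM149PT. The responses differed (-0.95 ± 0.185, adjusted p = 0.000828). UBA1, which encodes a ubiquitin-activating enzyme (E1), went the other way in SUM149PT. It fell there by 0.43 ± 0.0817 (limma, adjusted p = 0.00057) and differed by -0.04 ± 0.0972 (adjusted p = 0.805) in SUM190PT. UBA6 was called in neither line.

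The immunoproteasome genes, whose products replace the catalytic subunits after interferon, did not follow the constitutive ones in SUM149PT. PSMB8 had 6.83, 6.92 and 6.80 with CG-1521, against 7.62, 7.48 and 7.37 in vehicle, apart, and fell by 0.64 (adjusted p = 5.79e-05). PSMB9 had 6.65, 6.70 and 6.61 with CG-1521, against 7.42, 7.45 and 7.53 in vehicle, apart, and fell by 0.82 (adjusted p = 8.31e-07), beside the falls of PSME1 and PSME2. PSMB10 did not pass (-0.20 ± 0.136, adjusted p = 0.299). In SUM190PT, where PSMB8 and PSMB9 had log2 differences of 2.37 and 1.37 in vehicle (SUM149PT minus SUM190PT), 0 of 3 passed with CG-1521, with 1 (PSMB8) at an unadjusted p under 0.05, and 0 of 3 passed without the same 2 arrays. The differences there were 0.41, -0.09 and 0.33, and the response differed between the lines for PSMB8 (-1.05 ± 0.172, adjusted p = 0.000153) and PSMB9 (-0.73 ± 0.206, adjusted p = 0.0147).

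Some gene groups moved in the same cultures without being part of the system. In SUM190PT 14 of 14 heat shock genes rose with CG-1521, with a median log2 difference of 1.35 and 4.88 for HSPA6, and 13 of 14 rose without vehicle array 3 and estradiol array 3 (median 1.20). Of all genes 8.32% rose and 8.26% fell there, and 8.07% rose without these arrays. In SUM149PT 1 rose and 7 fell of the 14, with a median of -0.21 and the largest fall for HSPB1 (-0.77), so there the proteasome genes were higher while most of the called heat shock genes were lower. Of all genes 14.4% rose and 19.9% fell in SUM149PT. The DNA replication list fell in 15 of 15 genes in SUM149PT (median -1.33); in SUM190PT 0 of 15 passed (median -0.89), with 7 of 15 at an unadjusted p under 0.05. The count of 0 of 15 rested on the arrays that stand apart: without them 15 of 15 fell (median -1.46), where 9.40% of all genes fell. Low values of this same list had helped to set those arrays apart. Leaving them out therefore nearly fixed a fall beforehand, and no conclusion is drawn from the 15 of 15. The part of these groups in the proteasome result was not tested. Their array medians in SUM190PT with CG-1521 were 11.44, 10.41 and 11.79 for heat shock, against 8.79, 8.61 and 8.37 in vehicle, while the proteasome members' medians were 10.09, 9.88 and 9.84, against 9.43, 9.28 and 9.06.

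**Figure D5:**
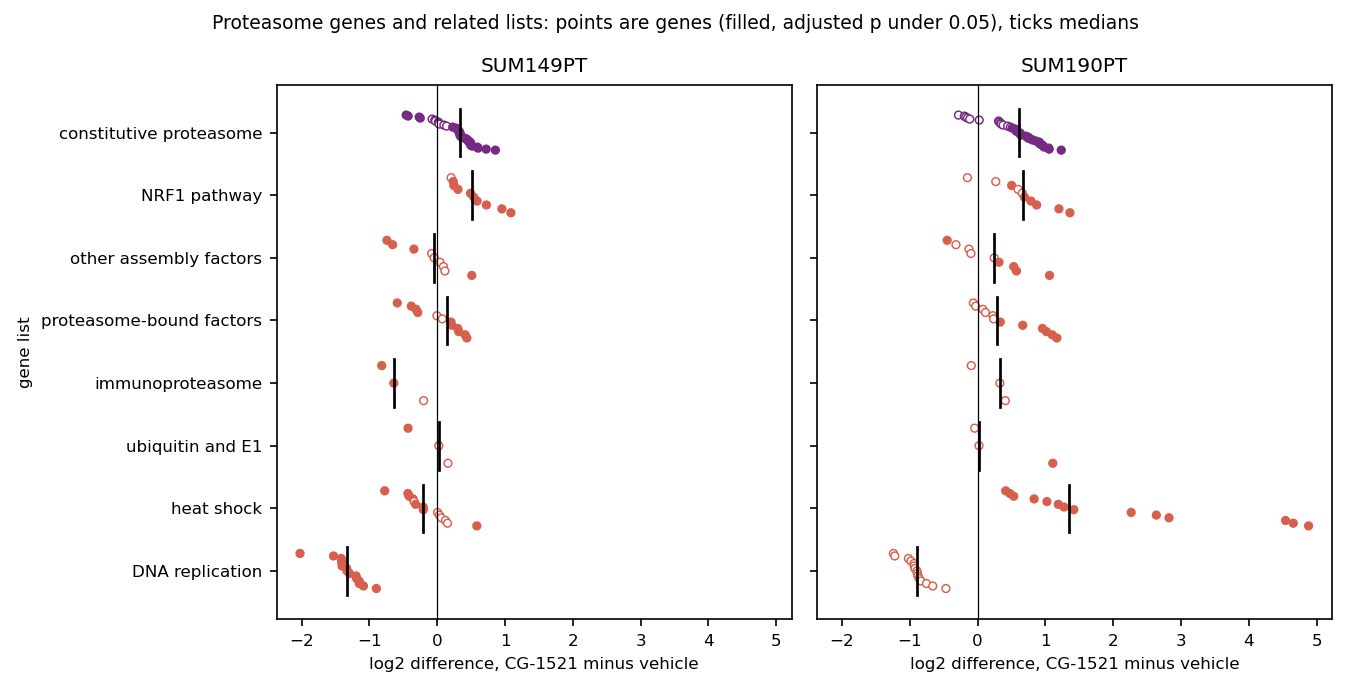
Log2 difference of CG-1521 minus vehicle for each gene (points, filled at an adjusted p under 0.05) of the constitutive proteasome and of 7 related or co-moving lists, in SUM149PT (left) and SUM190PT (right), with black ticks at list medians. By their medians the proteasome and NRF1 pathway lists lie right of 0 in both lines, heat shock lies left of 0 in SUM149PT and far right in SUM190PT, and DNA replication lies left in both.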

How the data were processed

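RNA was extracted on columns and amplified with a NuGEN pico kit, per the labels' protocols, and hybridised to 24 Affymetrix arrays. The authors deposited log2 values of 33297 probe sets, made by RMA in Affymetrix Expression Console, per the submitters' processing notes; versions, and whether the lines were normalized together, are not given in the sources used here. The values were used as deposited. Of the probe sets, 19460 carried 1 gene symbol, 1754 several and 12083 no entry, and the brightest single-symbol probe set of each gene left 18417 genes. Each line was fitted on its own 12 arrays with limma 3.58.1 (lmFit and eBayes, R 4.3.3), and the lines were compared on all 24, with Benjamini-Hochberg adjustment over all genes, a threshold of 0.05 and 2-sided tests. Every p-value in the report comes from these fits, and errors after ± are standard errors unless called SD. The 3 arrays per group come from separate experiments with 1 line, and their number limits the precision. In simulated data for CG-1521 against vehicle over 18417 genes, 100 genes were changed at each size, with noise independent between arrays. Log2 changes of 0.5 and 1 were recovered for 60% and 97% of these genes in SUM149PT and for 29% and 77% in SUM190PT. Many more genes were called in the real data, so these rates need not hold there.

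The members and lists were chosen with earlier results of these data known. Genes given on every array were, for each comparison of CG-1521 with its control, the 3 largest rises and 3 largest falls among called members, the 3 largest differences each way between the lines in vehicle, the catalytic genes, PSMA8 and PSMB11; of other lists up to 4 called genes were named by size. Same-numbered arrays deviated together in SUM190PT for estradiol against vehicle (correlations of 0.443, 0.229 and 0.729 over genes) and for estradiol plus CG-1521 against CG-1521 (0.518, 0.434 and 0.502), each over 0.1. In the other comparisons at least 1 pair was at or below 0.1, most narrowly for estradiol plus CG-1521 against CG-1521 in SUM149PT (0.144, 0.097 and 0.11). Alternatives were another set of arrays in the fit, the replicate block, quantile normalization, median centring, the average over the probe sets of a gene, a filter on dim genes, another variance model and leaving out arrays; values of related lists without the 2 SUM190PT arrays were chosen after seeing the data. Promoters and symbols came from RefSeq tables.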

Additional observations from a re-analysis of the deposited data

Results flagged for a closer look

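For 11 genes the response to CG-1521 against vehicle differed between SUM149PT and SUM190PT by the test of that difference (limma, adjusted p under 0.05). The response in SUM149PT minus that in SUM190PT was -0.505 for PSMA1, -0.72 for PSMA3, -0.66 for PSMA5, -0.42 for PSMB7, -0.56 for PSMC1, -0.62 for PSMC6, -0.55 for PSMD6, -0.56 for PSMD12 and -0.72 for PSMD14, all of which rose in both lines. For PSME1 it was -0.48 and for PSME3 -0.61, which fell in SUM149PT and were not called in SUM190PT. The dose (7.5 µM in SUM149PT and 5 µM in SUM190PT) and the medium differed with the line, and these cannot be told apart. PSMA3, PSMC1, PSMD6, PSMD12 and PSME1 were not called under quantile normalization.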

How the results depend on the processing

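Of the alternatives tried, none turned the direction of a named gene that was called; 936 results for single genes kept their side of the threshold and 60 lost it. With all 24 arrays in 1 fit, the members called were 18 for CG-1521 against vehicle, 12 for estradiol plus CG-1521 against estradiol and 17 for estradiol plus CG-1521 against vehicle in SUM149PT, and 4 for estradiol against vehicle and 3 for the interaction in SUM190PT. Quantile normalization gave 6 for the difference in response between the lines, and a replicate block gave 2 for estradiol against vehicle in SUM190PT; the block moved no other count by more than 1.5 times. Leaving out each array in turn gave 24 to 27, 20 to 25 and 24 to 26 members in SUM149PT and 17 to 26, 13 to 17 and 13 to 23 in SUM190PT for the 3 comparisons of CG-1521 (against vehicle, with estradiol on both sides, and with estradiol against vehicle). For estradiol against vehicle and for the interaction it gave 0 in SUM149PT and 0 to 2 in SUM190PT, with 2 without vehicle array 1. The difference in response gave 6 to 16, and the lines gave 17 to 21 in vehicle and 16 to 18 with CG-1521. For estradiol plus CG-1521 against vehicle in SUM190PT the count was 15 without vehicle array 2 or 3, 13 without combination array 1 and 14 without combination array 2. Where a call changed, the cause was not tested. The number of arrays limits all of these values. Shares of all genes in the fits that left out 1 array are not given here, so those ranges are not read as particular to the members.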
